A study of Mus musculus with 12 samples.

Results

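GSCLC_2 is 1 of 4 mouse lines of germline stem cell-like cells (GSCLCs), and its transcriptome is compared here with those of GSCLC_1, GSCLC_3 and GSCLC_4. It is represented by 2 of 12 libraries, the other GSCLC lines by 6, and 2 lines of germline stem cells (GSC_1 and GSC_2) by 4, which serve only as a reference for level. The members were chosen by line name, not by any measured value. All lines share the background C57BL/6 x 129/SvJcl and the genotype AcrAct_EGFP reporter. GSCLCs were derived from reconstituted testes held in culture. For GSCLC_2 and GSCLC_3 these were kept for 2 weeks at 37°C and for 1 week at 34°C (condition 2), and for GSCLC_1 and GSCLC_4 for 3 weeks at 34°C (condition 1). The GSC lines came from separate testes of postnatal day 7. All 6 lines were grown in 1 medium with GDNF, bFGF, LIF, EGF and a little serum, and the 2 libraries of a line are biological replicates of its culture. GSCLC_2 is therefore a single derivation, and what sets it apart cannot be told apart from the derivation itself. RNA was measured by SC3-seq, which reads the 3′ ends of amplified cDNA, from 1 ng of total RNA on a SOLiD 5500XL instrument.

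Germline stem cells are spermatogonial stem cells expanded in culture. They renew under GDNF, which acts through the receptor Ret and its co-receptor Gfra1, and under bFGF, whose signal runs through the ERK kinases. The PIWI-interacting RNA (piRNA) pathway, a set of Argonaute-family proteins, Tudor-domain scaffolds and helicases, silences transposable elements in these cells. Germ cell genes such as Dazl, Ddx4 and Mael mark the lineage, while some genes of pluripotency, among them Sox2 and Utf1, are also transcribed in germline stem cell cultures.

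Levels are in RPM, reads scaled to a common library total, the unit of the deposited table. The steps between low values imply 3832962 and 3988055 counted reads for GSCLC_2 and 3031461 to 4229841 for the 8 GSCLC libraries. A level of 3 reads corresponds to 0.709 to 0.99 RPM in these, which covers counting error only. Of 26219 genes, 11453 reached at least 5 RPM in at least 2 of the 8 libraries and were tested. Germ cell markers were abundant in GSCLC_2: Dazl, which binds RNA in germ cells, stood at 1429 and 1325 RPM. Ddx4, the Vasa helicase, stood at 501 and 464. Of the markers of testicular somatic cells, Amh and Fshr of Sertoli cells and Cyp17a1 and Lhcgr of Leydig cells were listed at 0 in both GSCLC_2 libraries. Others were present: Wt1 was at 29.8 and 20.1 RPM, Vim, an intermediate filament gene of mesenchymal cells, at 55.4 and 110, Krt18 at 13.8 and 20.6, Insl3 at 6.77 and 3.91 and Acta2 at 4.01 and 17.5. The part of such cells in the results was not tested. In such bulk samples, fewer cells of a type and less RNA per cell cannot be told apart.

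GSCLC_2 differed from the mean of the other 3 lines by library in 183 genes (1.6% of those tested), of which 93 were higher (0.812%) and 90 lower (0.786%). The values are log2(RPM + 1), a scale that understates the change of low genes, and the test is limma's moderated test with a Benjamini-Hochberg adjusted p under 0.05, here called passing. The absolute difference exceeded 2-fold for 74 genes. Both GSCLC_2 libraries lay above all 6 other GSCLC libraries for 71 of the higher genes, and below all 6 for 75 of the lower. Over all genes tested, with or without passing, both lay above all 6 for 5.42% and below for 5.76%, and the median difference was 0.00. The spread behind this test is that between culture replicates, so it speaks for these lines only. When each line was averaged and GSCLC_2 set against the spread among the other 3 lines, 0 genes passed in limma (0%), the smallest adjusted p was 0.449, and 307 genes (2.68%) had an unadjusted p under 0.05, 137 higher and 170 lower.

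**Figure D1:**
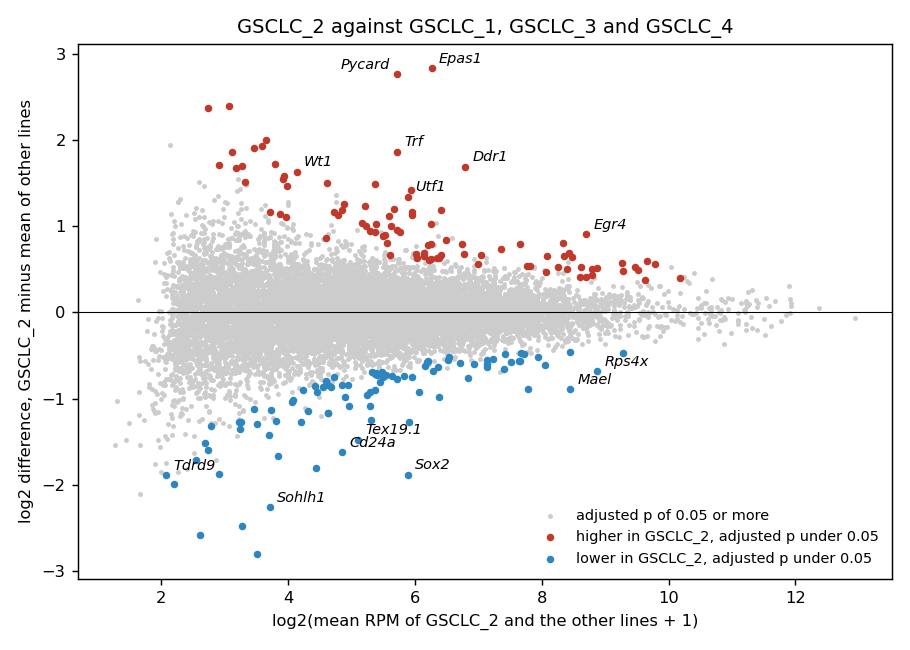
Each point is 1 of the 11453 genes tested; the x axis is the log2 of the mean RPM plus 1 and the y axis the log2 difference between GSCLC_2 and the mean of the other 3 GSCLC lines. Red and blue points are the 93 higher and 90 lower genes; Epas1 and Pycard lie highest, and Sox2, Tex19.1 and Mael are labelled among the lower genes.

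The 12 largest rises among genes of at least 20 RPM that cleared all 6 other libraries were led by Epas1 and Pycard. Epas1 encodes an alpha subunit of the hypoxia-inducible factors. It was read at 135 and 123 RPM in GSCLC_2, at 23.1 and 8.51 in GSCLC_1, at 7.63 and 7.55 in GSCLC_3 and at 41.6 and 48.8 in GSCLC_4. Both GSCLC_2 libraries were thus far above every other GSCLC library, and also above the GSC libraries, which ran from 11.6 to 35.7 (log2 difference 2.84 ± 0.27 SE, adjusted p = 7.21e-05). Of 17 tested genes of the hypoxia response 0 passed, with a median of -0.08. As 1.6% of all genes passed, a count of 0 among 17 is near the background.

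Pycard encodes the inflammasome adaptor ASC. It stood at 81.5 and 77.5 RPM in GSCLC_2, 20.0 and 21.3 in GSCLC_1, 0.283 and 0.809 in GSCLC_3 and 46.8 and 51.5 in GSCLC_4, against 33.0 to 40.7 in the GSC libraries (2.77 ± 0.21, adjusted p = 1.41e-05). The groups did not overlap, and in GSCLC_3 the gene was at or below the level of 3 reads. The difference therefore held in part the near absence of Pycard from GSCLC_3, yet without that line in the reference it still passed, as did Epas1.

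Ddr1, a receptor tyrosine kinase that binds collagen, was read at 161 and 169 RPM in GSCLC_2 and at 26.9 to 97.2 in the other GSCLC libraries (1.69 ± 0.14, adjusted p = 2.17e-05). GSCLC_1 came nearest with 75.9 and 97.2, and the GSC libraries lay at 52.2 to 75.3. Trf, which encodes the iron carrier transferrin, stood at 76.7 and 81.7 against 11.9 to 48.2 (1.87 ± 0.19, adjusted p = 0.000139). The last 300 bases of Trf transcripts share stretches of 40 bases with 327 other genes, so its level is uncertain. Unlike Epas1 and Ddr1, Trf in GSCLC_2 was not above the GSC libraries, which ran from 59.7 to 118.

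Wt1, a zinc finger factor of the gonad known from Sertoli cells, was at 29.8 and 20.1 RPM in GSCLC_2 and between 2.97 and 17.2 in the other GSCLC libraries (1.64 ± 0.29, adjusted p = 0.0142). GSCLC_4 was next, with 10.8 and 17.2, and the GSC libraries were at 1.28 to 5.22. Utf1, a chromatin-associated factor of undifferentiated spermatogonia and pluripotent cells, reached 93.5 and 71.2 RPM in GSCLC_2. It stood at 26.5 and 25.3 in GSCLC_1, 33.6 and 15.1 in GSCLC_3 and 58.9 and 47.5 in GSCLC_4 (1.35 ± 0.24, adjusted p = 0.0142). No other library reached the lower GSCLC_2 value, and GSC_2 lay lowest at 6.89 and 7.14.

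The remaining leading rises were of moderate level. Hebp1, a heme-binding protein, stood at 22.8 and 20.3 RPM against 3.77 to 10.8, and Ryr1, a calcium release channel, at 34.1 and 34.4 against 5.39 to 19.5. Mtap7d3, a microtubule-associated protein, was at 22.1 and 21.4 against 3.76 to 12.2, and Gpc4, a heparan sulfate proteoglycan, at 49.4 and 49.0 against 7.92 to 40.6. The uncharacterised gene 8430427H17Rik and the histone gene Hist1h2ao complete the group. Hist1h2ao, at 91.0 and 78.8 against 14.8 to 65.3, shares its 3′ end with 49 other genes and is uncertain. The log2 differences of these 6 genes lay between 1.24 for Gpc4 and 1.58 for Hebp1. Hebp1 lies on the part of chromosome 6 described below in which most genes were higher in GSCLC_2.

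**Figure D2:**
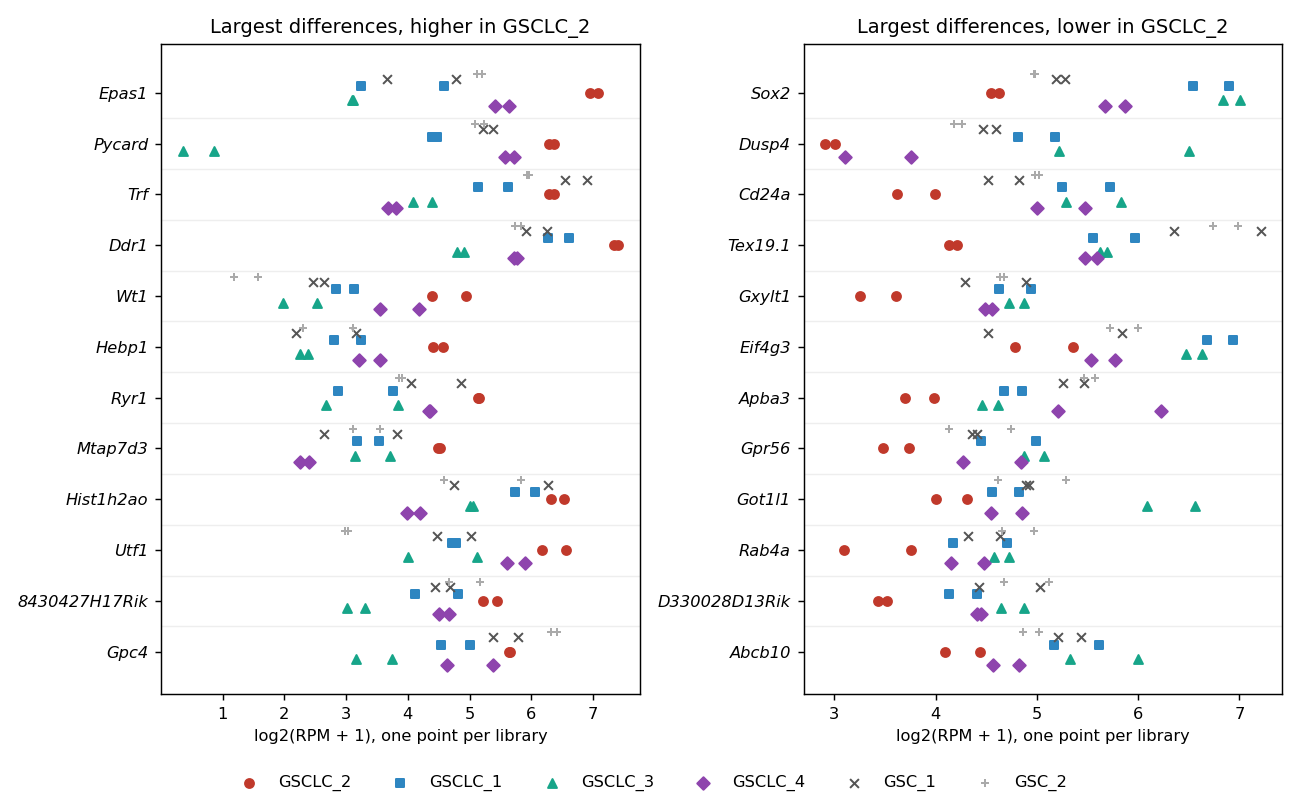
The 12 largest higher (left) and lower (right) differences in GSCLC_2 among passing genes of at least 20 RPM that cleared all 6 other GSCLC libraries; the x axis is log2(RPM + 1) and each point is 1 library, 2 per line, with the GSC libraries as crosses for reference. The red GSCLC_2 points lie beyond every other GSCLC point in each row, while in rows such as Trf and Gpc4 they do not lie beyond the GSC points.

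Among lower genes of at least 20 RPM that cleared all 6 other libraries, Sox2 fell most. Larger falls among genes of lower level included Mageb17-ps (-2.81) and Tox3 (-2.58), named after their values were seen and both also below all 6. Sox2, a transcription factor of pluripotent cells, was at 22.3 and 23.7 RPM in GSCLC_2, at 118 and 92.2 in GSCLC_1, 113 and 128 in GSCLC_3 and 57.6 and 50.1 in GSCLC_4 (-1.89 ± 0.15, adjusted p = 1.41e-05). GSCLC_2 was lowest of all, and the GSC libraries, at 30.3 to 37.9, also lay below every other GSCLC library. In the comparison by line its unadjusted p was 0.000791 in limma, and the adjusted p did not pass. Pou5f1, the other core pluripotency factor followed, was at 1.75 and 3.65 RPM in GSCLC_2 against 0.565 to 8.56, and did not pass (adjusted p = 0.653). Its end shares a stretch with another gene, and the GSC libraries were at 15.9 to 35.5.

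Dusp4, a phosphatase that inactivates ERK, stood at 6.52 and 7.04 RPM in GSCLC_2 and 7.59 to 89.3 in the other lines (-1.80 ± 0.30, adjusted p = 0.0102). GSCLC_4, at 12.5 and 7.59, was close to it, and the high value belonged to GSCLC_3. Cd24a, a small surface glycoprotein, was at 11.3 and 14.9 against 31.1 to 56.0 (-1.63 ± 0.22, adjusted p = 0.00195), with the 3 other lines close to one another. Gxylt1, a glycosyltransferase, was at 8.52 and 11.2 against 21.4 to 29.8, again with little spread among the other lines.

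Eif4g3, a scaffold of translation initiation, was at 26.6 and 39.9 RPM against 45.3 to 122 (-1.27 ± 0.17, adjusted p = 0.00195). GSCLC_4 was the nearest line for this gene too, with 45.3 and 53.8. The adhesion receptor gene Gpr56, the aminotransferase-like gene Got1l1, the endosomal GTPase gene Rab4a and the mitochondrial transporter gene Abcb10 fell by 1.14, 1.08, 1.04 and 0.99 on the log2 scale. All 4 lie on chromosome 8, as does Dusp4. Without GSCLC_3 in the reference none of these 5 passed, and over the alternative settings Rab4a passed in 6 of 21 and Abcb10 in 12. Apba3, a Golgi adaptor, fell by 1.16 and D330028D13Rik by 1.01. The transcript ends of Abcb10 and Apba3 each share a stretch with 1 other gene, so their levels are uncertain.

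In the files Epas1 has identifier 13819, Pycard 66824, Ddr1 12305, Sox2 20674 and Tex19.1 73679. On GRCm38, Epas1 lies at chr17:86753864-86833410, Pycard at chr7:127991373-127993867, Ddr1 at chr17:35681567-35704741, Sox2 at chr3:34649995-34652461 and Tex19.1 at chr11:121146143-121148314. Reads come from the 3′ ends of these genes, so the 3′ untranslated region and last exon carry the measurement.

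Among germ cell genes, Tex19.1, Sycp3 and members of the piRNA pathway were lower in GSCLC_2, while the bulk of the lineage's genes did not pass. Of 24 tested genes of the germ cell core, 0 rose and 3 fell, Tex19.1, Sycp3 and Mael (12.5%, against 0.786% of all genes tested), with a median of -0.05. Of 21 tested genes of the piRNA pathway, 0 rose and 4 fell, Mael, Tdrd9, Piwil2 and Tdrd1 (19%, against the same 0.786%). In all, 14 of 21 lay below 0, with a median of -0.16. Mael is counted in both lists, so these counts are not separate. The summed level of the piRNA genes was 2595 and 2518 RPM in GSCLC_2 and 2775 to 3287 in the other GSCLC libraries. The gap rested on Mael: without it, a sum added after the values were seen, GSCLC_2 was at 2360 and 2274 and overlapped GSCLC_1 at 2444 and 2342. The lowest GSC library for the full sum was at 2558.

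Tex19.1, a germ cell protein that restrains retrotransposons, was read at 16.5 and 17.5 RPM in GSCLC_2, 45.9 and 61.7 in GSCLC_1, 48.3 and 50.7 in GSCLC_3 and 43.3 and 47.2 in GSCLC_4 (-1.48 ± 0.17, adjusted p = 0.000433). The 3 other lines were close to one another, GSCLC_2 was below all of them, and the GSC libraries were higher still, at 81.0 to 147. By line its unadjusted p in limma was 0.0002, with an adjusted p of 0.764.

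Mael, a protein of the nuage where piRNAs are made, was at 234 and 244 RPM in GSCLC_2, 501 and 433 in GSCLC_1, 557 and 565 in GSCLC_3 and 362 and 316 in GSCLC_4 (-0.89 ± 0.10, adjusted p = 0.000433). GSC libraries lay at 355 to 504, so both GSCLC_2 libraries were below every other GSCLC and GSC library. Sycp3, a component of the meiotic chromosome axis that is already transcribed in spermatogonia, was at 47.9 and 62.3 against 91.0 to 131 (-0.98 ± 0.15, adjusted p = 0.00699), with the GSC libraries at 85.4 to 90.2. The end of Sycp3 overlaps a stretch of Chpt1, so its level is uncertain.

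Piwil2, the Argonaute-family protein that binds piRNAs in these cells, was at 164 and 150 RPM against 170 to 339 (-0.56 ± 0.12, adjusted p = 0.0272). The gap to GSCLC_1, at 200 and 170, was small, and GSC libraries ran from 154 to 298. Tdrd1, a Tudor-domain scaffold, was at 123 and 104 against 134 to 195 (-0.55 ± 0.12, adjusted p = 0.0325). Tdrd9, a helicase of the pathway, was at 0.251 and 1.304 RPM against 3.30 to 9.16 in the other GSCLC libraries and 13.8 to 43.6 in GSCs (-1.89 ± 0.43, adjusted p = 0.0394). Its first GSCLC_2 value was under the level of 3 reads, so this gene was near the limit of detection there. Of the alternative settings, Tdrd9 passed in 7 of 20, Piwil2 in 13 and Tdrd1 in 12 of 21, while Tex19.1 passed in 21, Mael in 20 and Sycp3 in 19 of 21.

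Other genes that mark the lineage did not pass. Ddx4 (-0.14, adjusted p = 0.501) and Dazl (-0.06, adjusted p = 0.788) were close to the other lines, whose libraries overlapped those of GSCLC_2. The ranges of 2 SE to either side of the log2 difference were -0.33 to 0.04 and -0.23 to 0.10. Dppa4, a chromatin factor of pluripotent and germ cells, was at 71.7 and 80.1 RPM, above the other GSCLC libraries at 36.9 to 66.6, with an adjusted p of 0.0631.

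**Figure D3:**
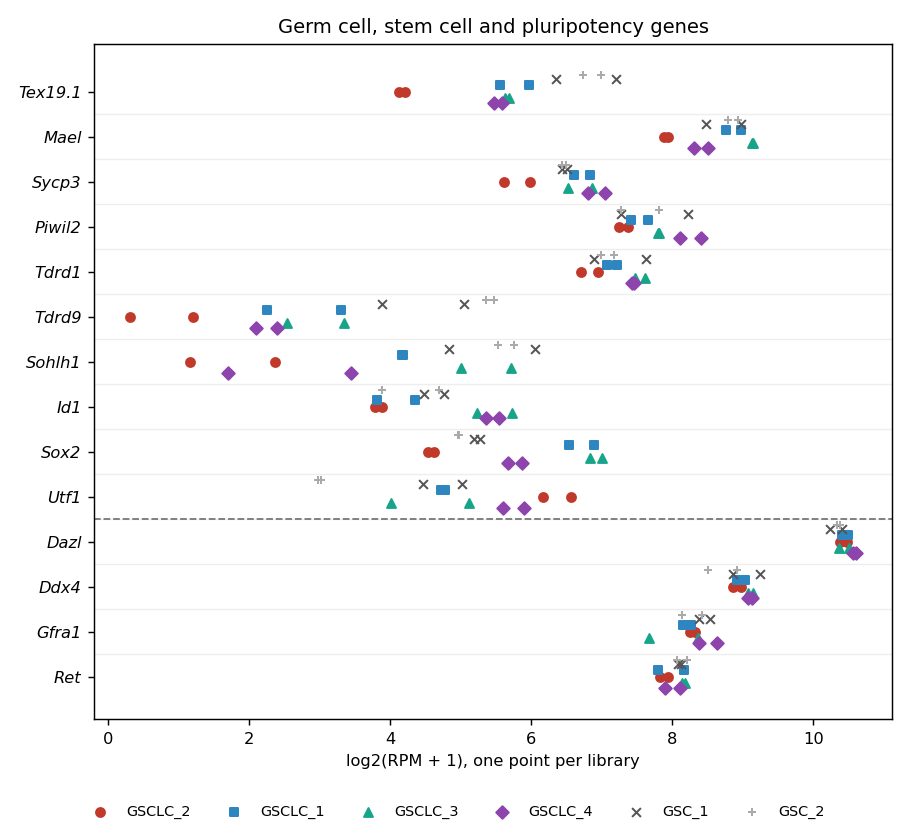
Genes of germ cells, stem cells and pluripotency, on log2(RPM + 1) with 1 point per library and 2 per line; the 4 genes below the dashed line did not pass. GSCLC_2 (red) lies lowest among the GSCLC lines for Tex19.1, Mael, Sycp3, Piwil2, Tdrd1, Tdrd9 and Sox2 and highest for Utf1, while Dazl, Ddx4, Gfra1 and Ret overlap.

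The 250 bases before the start sites of 4 lower germ cell genes, picked after their values were seen, are shown. Tdrd1, also lower, is not printed. Promoters were looked at because several germ cell genes are known to be held silent in other cells by DNA methylation of CG pairs there. The E-box CACGTG, letters recognised by many helix-loop-helix factors, was searched as well, and so was the E2F motif GCGGGAA. For Tdrd9 the table's start site lies inside the gene, whose RefSeq span begins at 111971488, so the end of its window overlaps the gene. The sequences are from RefSeq on GRCm38.p6, written on the strand of the gene, with CACGTG in capitals. The letters are their own reverse complement, so both strands are searched at once. Tex19.1 (chr11:121145893-121146142, plus strand) holds 15 CG pairs and Mael (chr1:166238745-166238994, minus strand) 18. Sycp3 (chr10:88459337-88459586, plus strand) holds 12 and Tdrd9 (chr12:111971309-111971558, plus strand) 8.
Tex19.1: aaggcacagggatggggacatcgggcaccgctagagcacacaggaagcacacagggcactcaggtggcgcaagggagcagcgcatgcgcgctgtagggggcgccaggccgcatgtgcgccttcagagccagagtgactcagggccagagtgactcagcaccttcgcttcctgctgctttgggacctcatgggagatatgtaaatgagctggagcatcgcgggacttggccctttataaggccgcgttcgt
Mael: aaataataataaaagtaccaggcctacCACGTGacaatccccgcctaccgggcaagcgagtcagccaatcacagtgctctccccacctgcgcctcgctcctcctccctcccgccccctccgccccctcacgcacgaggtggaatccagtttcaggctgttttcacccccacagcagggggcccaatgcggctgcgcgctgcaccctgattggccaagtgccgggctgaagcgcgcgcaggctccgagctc
Sycp3: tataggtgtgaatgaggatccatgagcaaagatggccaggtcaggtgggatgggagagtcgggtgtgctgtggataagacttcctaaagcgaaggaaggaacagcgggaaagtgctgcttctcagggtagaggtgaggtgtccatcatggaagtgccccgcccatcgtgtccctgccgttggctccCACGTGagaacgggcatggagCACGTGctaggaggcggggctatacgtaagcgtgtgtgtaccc
Tdrd9: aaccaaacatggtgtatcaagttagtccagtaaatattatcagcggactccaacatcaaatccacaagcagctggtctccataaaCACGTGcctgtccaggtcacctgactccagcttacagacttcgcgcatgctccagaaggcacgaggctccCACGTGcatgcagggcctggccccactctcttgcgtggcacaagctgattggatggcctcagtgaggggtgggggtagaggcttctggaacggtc
Across 32841 RefSeq promoters of this length the median was 6 CG pairs. At least as many as in Tex19.1 were found in 27.3%, as in Mael in 21.7%, as in Sycp3 in 33.5% and as in Tdrd9 in 43.0%. The E2F motif occurs at 1 place in Sycp3 and at 0 in Tex19.1, Mael and Tdrd9, and 3.82% of all promoters hold it. The E-box occurs at 1 place in Mael and at 2 places each in Sycp3 and Tdrd9, and 6.02% of all promoters hold it. Counted per gene over every listed start site, 10 of 70 lower genes with a promoter in the table held it (14.3%), as did 12 of 74 higher genes (16.2%) and 10.7% of the genes tested. Besides Mael, Sycp3 and Tdrd9, Tdrd1 and Sohlh1 are among those 10. Piwil2 has no entry in the table.

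Genes of stem cell self-renewal were mixed. Of 33 tested, 2 rose, Utf1 and Etv4, and 2 fell, Sohlh1 and Id1, with a median of -0.12. Together they are 12.1% of the list, against 1.6% of all genes tested. Sohlh1 is also counted in the list of spermatogonial differentiation. Without GSCLC_3 in the reference none of them passed. Etv4, an ETS factor induced by the growth factor receptors, stood at 98.0 and 86.6 RPM against 42.2 to 70.7 (0.78 ± 0.18, adjusted p = 0.0393), above every other GSCLC library. Sohlh1, a helix-loop-helix factor of spermatogonial differentiation, was at 1.254 and 4.17 RPM, against 17.1 and 17.02 in GSCLC_1, 31.1 and 51.5 in GSCLC_3 and 2.25 and 9.90 in GSCLC_4 (-2.26 ± 0.41, adjusted p = 0.0142). GSCLC_4 overlapped GSCLC_2 for this gene, and the GSC libraries were at 27.6 to 65.8. Id1, an inhibitor of helix-loop-helix factors that BMP induces, was at 13.8 and 12.8 RPM and overlapped GSCLC_1 at 13.1 and 19.4, with 36.7 to 52.0 in GSCLC_3 and GSCLC_4.

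The receptors and core factors of self-renewal did not pass. Gfra1 stood at 320 and 305 RPM in GSCLC_2 against 203 to 396, and Ret at 245 and 226 against 221 to 288. The end of Gfra1 shares a stretch with Gm16277, so its level is uncertain. Etv5, an ETS factor downstream of GDNF, was at 222 and 227 against 173 to 320, and Zbtb16, a zinc finger factor that holds stem cells undifferentiated, at 107 and 94.2 against 74.4 to 100.0. Their ranges of 2 SE to either side ran from -0.25 to 0.34 for Gfra1, -0.40 to 0.07 for Ret, -0.51 to 0.10 for Etv5 and -0.06 to 0.51 for Zbtb16. Id4, a marker of stem cells, was at 90.8 and 77.2 against 59.0 to 100 (adjusted p = 0.76), and Nanos2, an RNA-binding factor of stem cells, at 8.78 and 15.9 against 5.26 to 22.1 (adjusted p = 0.655). Lhx1, a homeobox gene induced by GDNF, lay above all 6 others at 38.6 and 39.1 against 15.8 to 37.4, without passing (adjusted p = 0.182), and far below the GSC libraries at 103 to 110. Kit and Stra8, which mark differentiation, were at 25.3 and 27.1 and at 13.8 and 4.96 RPM, within or next to the range of the others, with adjusted p of 0.332 and 0.68.

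Of 23 tested genes of the ERK response, 3 rose and 1 fell (17.4%, against 1.6% of all genes tested), with a median of -0.02. Egr4, an early growth response factor, stood at 567 and 502 RPM in GSCLC_2, 238 and 243 in GSCLC_1, 230 and 227 in GSCLC_3 and 467 and 370 in GSCLC_4 (0.91 ± 0.11, adjusted p = 0.00067). GSCLC_2 was highest, GSCLC_4 next, and the GSC libraries were at 230 to 296. Ier3, an early response gene of cell survival, was at 52.7 and 76.7 against 20.1 to 44.5 (1.00 ± 0.18, adjusted p = 0.0142). Etv4 and the fall of Dusp4 complete the 4. The common read-outs of the pathway did not pass: Egr1 was at 110 and 98.6 RPM against 78.2 to 183, Dusp6, an ERK phosphatase, at 142 and 163 against 91.4 to 335, and Spry4, a feedback inhibitor, at 51.4 and 49.3 against 21.6 to 46.8 (adjusted p = 0.212). Egr4 lies on the part of chromosome 6 described below in which most genes were higher in GSCLC_2.

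Genes of cholesterol synthesis lay mostly below the other lines. Of 27 tested, 0 rose and 3 fell (11.1%, against 0.786% of all genes tested), with a median of -0.31. Of the 27, 21 lay below 0, and 7 had both GSCLC_2 libraries below all 6 others, which held for 5.76% of all genes. Srebf2, the transcription factor that drives the pathway, stood at 141 and 152 RPM in GSCLC_2, 191 and 196 in GSCLC_1, 231 and 245 in GSCLC_3 and 215 and 239 in GSCLC_4 (-0.58 ± 0.11, adjusted p = 0.0142), below every other GSCLC and GSC library. Sc4mol, a sterol methyl oxidase, was at 43.6 and 44.6 against 56.2 to 121 (-0.75 ± 0.16, adjusted p = 0.0325). Cyp51, the lanosterol demethylase, was at 48.9 and 34.96 against 52.6 to 78.2 (-0.73 ± 0.17, adjusted p = 0.0414). Its end shares a stretch with Akap9, so its level is uncertain. Without GSCLC_3 in the reference Srebf2, Sc4mol and Cyp51 no longer passed, with the direction kept. Over the alternative settings Srebf2 passed in 16 of 21, Sc4mol in 14 and Cyp51 in 10.

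The summed level of the cholesterol genes was 1777 and 1723 RPM in GSCLC_2, against 1963 to 2296 in the other GSCLC libraries. Mvd, a decarboxylase of the mevalonate pathway, was at 15.0 and 20.3 RPM against 23.7 to 45.8, and Idi1, an isomerase, at 83.5 and 76.2 against 103 to 122, and neither passed (adjusted p = 0.0664 and 0.102). Sc4mol lies on chromosome 8, whose genes were high in GSCLC_3.

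**Figure D4:**
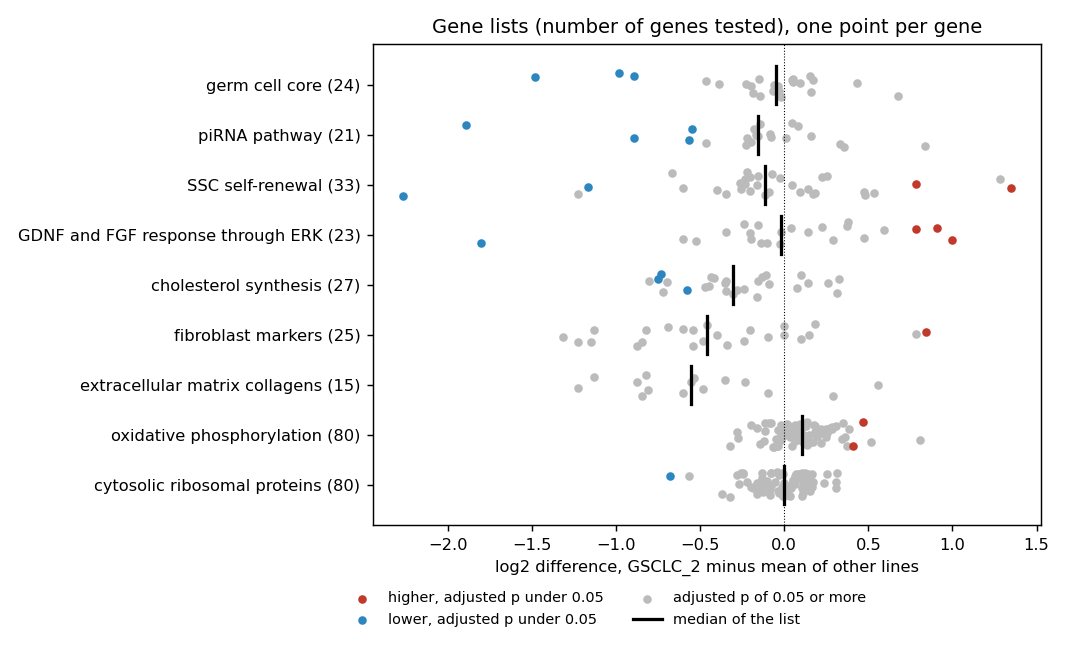
Log2 differences between GSCLC_2 and the mean of the other GSCLC lines for the tested members of 9 gene lists, 1 point per gene, with vertical position within a list drawn at random and the black bar at the median. The medians of cholesterol synthesis (-0.31), fibroblast markers (-0.46) and collagens (-0.55) lie to the left, with passing genes among the cholesterol genes but 1 rise and 0 falls among fibroblast markers.

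Other metabolic and growth groups gave single genes. Of 80 tested genes of oxidative phosphorylation, 2 rose, Ndufa9 and Ndufa11. That share, 2.5%, is near the 1.6% of all genes, 59 lay above 0, and the median was 0.11. Ndufa11 passed in 8 of 21 alternative settings. Ndufa9, a complex I subunit, was at 304 and 309 RPM against 176 to 303, with GSCLC_4 at 303 and 292, and Ndufa11, another subunit, at 463 and 487 against 343 to 397. Both ends share a stretch with another gene and are uncertain. Mcm2, a subunit of the replicative helicase, was at 846 and 868 against 497 to 707 (0.50 ± 0.11, adjusted p = 0.0315). It was the 1 passing gene of 42 replication genes (2.38%, against 1.6% of all genes tested). E2f1, the S phase transcription factor, was at 170 and 132 against 72.5 to 120 (0.56 ± 0.13, adjusted p = 0.0469). It was the 1 passing gene of 28 G1 genes (3.57%, against the same 1.6%).

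Hk2, a hexokinase at the entry of glycolysis, was at 63.7 and 53.7 RPM against 22.6 to 44.3 (0.81 ± 0.17, adjusted p = 0.0283). It was the 1 passing gene of 22 glycolysis genes (4.55%, against 1.6% of all genes tested). Gpx4, a selenoenzyme that reduces lipid peroxides, was at 276 and 254 against 140 to 208 (0.54 ± 0.11, adjusted p = 0.0249), though its end is shared with a processed copy and is uncertain. Gsta3, a glutathione transferase, was at 21.1 and 13.8 and overlapped GSCLC_4 at 29.6 and 27.4, while GSCLC_1 and GSCLC_3 were at 0.856 to 2.83. Rps4x, a ribosomal protein gene on the X chromosome, was the 1 gene of 80 cytosolic ribosomal protein genes to pass, at 318 and 402 RPM against 526 to 688 (-0.68 ± 0.12, adjusted p = 0.0128). Its end is shared with 9 other genes, so its level is uncertain. Among 80 genes a count of 1 is near the background, as 1.6% of all genes tested passed. Hk2, Mcm2 and Ndufa9, like Egr4, lie on chromosome 6 beyond 80 Mb. Without GSCLC_3 in the reference Hk2, Mcm2, E2f1, Gsta3, Ndufa9 and Ndufa11 no longer passed, while Gpx4 and Rps4x did. Gpx4 in turn did not pass without GSCLC_4 in the reference, and it passed in 13 of 21 alternative settings.

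Markers of other cells were followed beside these results. Of 25 tested fibroblast markers 1 rose and 0 fell (4%, against 1.6% of all genes tested). The median was -0.46, and 19 lay below 0. Timp1, a metalloproteinase inhibitor, was at 98.3 and 130 RPM against 45.7 to 76.3 (0.84 ± 0.16, adjusted p = 0.0165), with the GSC libraries at 86.7 to 104. The summed level of the list was 636 and 860 RPM in GSCLC_2 and 636 to 1013 in the others. The replicates of GSCLC_2 differed here: Col3a1, a fibrillar collagen, was at 3.76 and 21.4 RPM, and Fbln2, a matrix protein, at 4.01 and 26.1. Of 15 tested collagens 0 passed (median -0.55), which is near the 1.6% of all genes tested. The part of matrix-producing cells in the other results was not tested.

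Sertoli markers gave 2 of 8 (25%, against 1.6% of all genes tested), 1 higher and 1 lower, with a median of -0.21. Beside the rise of Wt1, Sox9 was at 2.01 and 2.87 RPM and Clu, an abundant Sertoli transcript, at 7.02 and 7.83 against 9.99 to 24.3, without passing. Rhox5, a homeobox gene of the X chromosome, was at 1.504 and 2.61 RPM in GSCLC_2 and at 69.4 and 68.3 in GSCLC_4, with GSCLC_1 and GSCLC_3 at 1.62 to 3.42. The difference (-1.67 ± 0.31, adjusted p = 0.0145) thus rested on GSCLC_4: without that line in the reference it was -0.24 with an adjusted p of 0.775, in a range of 0.00258 to 0.775 over the alternatives. Grb10, an imprinted adaptor of insulin signalling, was likewise at 15.3 and 17.2 RPM against 138 and 131 in GSCLC_3, and overlapped GSCLC_1 at 9.99 and 18.4. Without GSCLC_3 the Grb10 difference was -0.39 and did not pass, with an adjusted p of 0.493, in a range of 0.000308 to 0.493. The summed level of macrophage and endothelium markers was 23.3 and 23.0 RPM, against 27.0 to 41.9.

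Of 5 tested genes of the Hoxa cluster, 2 rose, where 0.812% of all genes did. Hoxa10 was at 20.6 and 14.1 RPM in GSCLC_2, 15.8 and 23.7 in GSCLC_4, 4.28 and 6.38 in GSCLC_1 and 0.283 and 0.27 in GSCLC_3 (1.73 ± 0.32, adjusted p = 0.0142). Hoxa13 was at 10.3 and 12.3, 12.3 and 10.6, 3.14 and 2.84, and 0.283 and 0 RPM in the same order of lines (1.68 ± 0.34, adjusted p = 0.0259). These homeobox genes of the body axis were thus high in both GSCLC_2 and GSCLC_4 and at or below the level of 3 reads in GSCLC_3. Without GSCLC_3 in the reference neither Hoxa10 nor Hoxa13 passed. Of 8 tested Hoxb genes 0 passed, near the 1.6% of all genes tested, with a median of 0.55. Hoxb7, the most abundant of them, was at 51.6 and 54.8 RPM against 27.7 to 46.2 and at 106 to 131 in GSCs (adjusted p = 0.149).

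Single falls were seen in further lists. Sp5, a target gene of Wnt signalling, was at 53.4 and 56.3 RPM against 64.9 to 99.2 (-0.62 ± 0.14, adjusted p = 0.035). Grhl2, an epithelial transcription factor, was at 1.00 and 3.13 against 4.26 to 21.8 (-1.87 ± 0.34, adjusted p = 0.0142). Magea10, a cancer-testis gene, was at 0 and 2.09 RPM against 3.51 to 8.27 (-1.99 ± 0.43, adjusted p = 0.0336), near the limit of detection in GSCLC_2. No gene passed in the lists of DNA methylation (16 tested), polycomb (32), p53 targets (24), heat shock (23), G2 and mitosis (25), retinoic acid (14), Notch (12), growth factor receptors (13), the integrated stress response (19) or interferon (13, median -0.33). In lists of these sizes a count of 0 is near the background, as 1.6% of all genes tested passed. Dnmt3b, a de novo DNA methyltransferase, was at 59.2 and 54.5 RPM against 42.0 to 73.9.

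Differences gathered on 3 stretches of the genome. Chromosome 6 held 27 of the 93 higher genes (5.1% of 529 tested, against 0.812% over all), and 24 of these lay from 80 Mb onwards. There, 267 of 310 tested genes were above 0, 24 rose (7.74%) and 0 fell, with a median of 0.33, whereas before 80 Mb the median of 219 genes was 0.00. Against the mean of the 4 GSC libraries, the median over these 310 genes was 0.52 and 0.44 in the libraries of GSCLC_2 and 0.56 and 0.60 in those of GSCLC_4. It was 0.02 and 0.03 in GSCLC_1 and -0.06 and -0.14 in GSCLC_3. The stretch was thus at a similar level in GSCLC_2 and GSCLC_4, and the median difference between those lines was -0.07. The 80 Mb boundary was set after the values were seen.

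Some of the 24 genes are named here, chosen after their values were seen. Fkbp4, a co-chaperone, was at 958 and 969 RPM in GSCLC_2, 557 and 612 in GSCLC_1, 562 and 616 in GSCLC_3 and 660 and 864 in GSCLC_4. Cct7, a chaperonin subunit, was at 1109 and 961 RPM in GSCLC_2, 642 and 564 in GSCLC_1, 564 and 579 in GSCLC_3 and 1079 and 902.5 in GSCLC_4. Nagk, an N-acetylglucosamine kinase, was at 47.6 and 46.2, 13.98 and 18.7, 16.1 and 14.6, and 49.6 and 45.9 RPM in the same order. Cct7 and Nagk were high in GSCLC_2 and GSCLC_4 and low in the other lines. Cd9, a tetraspanin found on spermatogonial stem cells, was at 410 and 434 RPM in GSCLC_2 against 207 to 335.

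A second stretch lies at the end of chromosome 3. From 140 Mb onwards all 47 tested genes were lower in GSCLC_2 than in the mean of the other lines, with a median of -0.61. That boundary was set after the values were seen. Of the 47, 11 fell (23.4%, against 0.786% of all genes tested), and 4 of these had both GSCLC_2 libraries below all 6 others. Before 140 Mb the median of 452 genes was 0.00. Against the GSC mean the 47 genes had medians of -0.84 and -0.94 in GSCLC_2 and -0.72 and -0.84 in GSCLC_4, but 0.04 and -0.06 in GSCLC_1 and -0.07 and -0.04 in GSCLC_3. GSCLC_2 and GSCLC_4 thus stood together again, with a median difference of -0.01 between them. The 11 include Gbp1 and Gbp2, guanylate-binding protein genes that interferon induces, named after their values were seen. Gbp2 was at 23.6 and 20.4 RPM in GSCLC_2 and 26.8 and 21.4 in GSCLC_4, against 44.7 to 104 in GSCLC_1 and GSCLC_3. Gbp1 was at 0 and 1.304 RPM in GSCLC_2 and at 0 in both libraries of GSCLC_4, against 16.8 to 39.6. Sox2 lies on the same chromosome but outside the stretch.

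The third is chromosome 8, where 19 of the 90 lower genes lie (3.09% of 615 tested, against 0.786% over all), each below all 6 other libraries, and 0 rose. Its median difference was -0.16. Here it was GSCLC_3 that stood away, with medians of 0.43 and 0.39 against the GSC mean, while GSCLC_2 was at 0.02 and -0.02, GSCLC_1 at -0.02 and 0.01 and GSCLC_4 at 0.06 and 0.07. Against GSCLC_1 alone the chromosome 8 median of GSCLC_2 was 0.00 and against GSCLC_3 it was -0.42. Of 206 bins of 10 Mb with at least 20 tested genes, GSCLC_2 exceeded the GSC mean by over 0.4 in 6, all on chromosome 6, and fell short by over 0.4 in 3, of which 2 are the last of chromosome 3 and 1 is on the X chromosome. These line differences share the 4 GSC libraries. The DNA of the lines was not analysed here. All chromosomes other than 6 and 8 together gave 62 higher (0.623%) and 65 lower genes (0.654%).

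**Figure D5:**
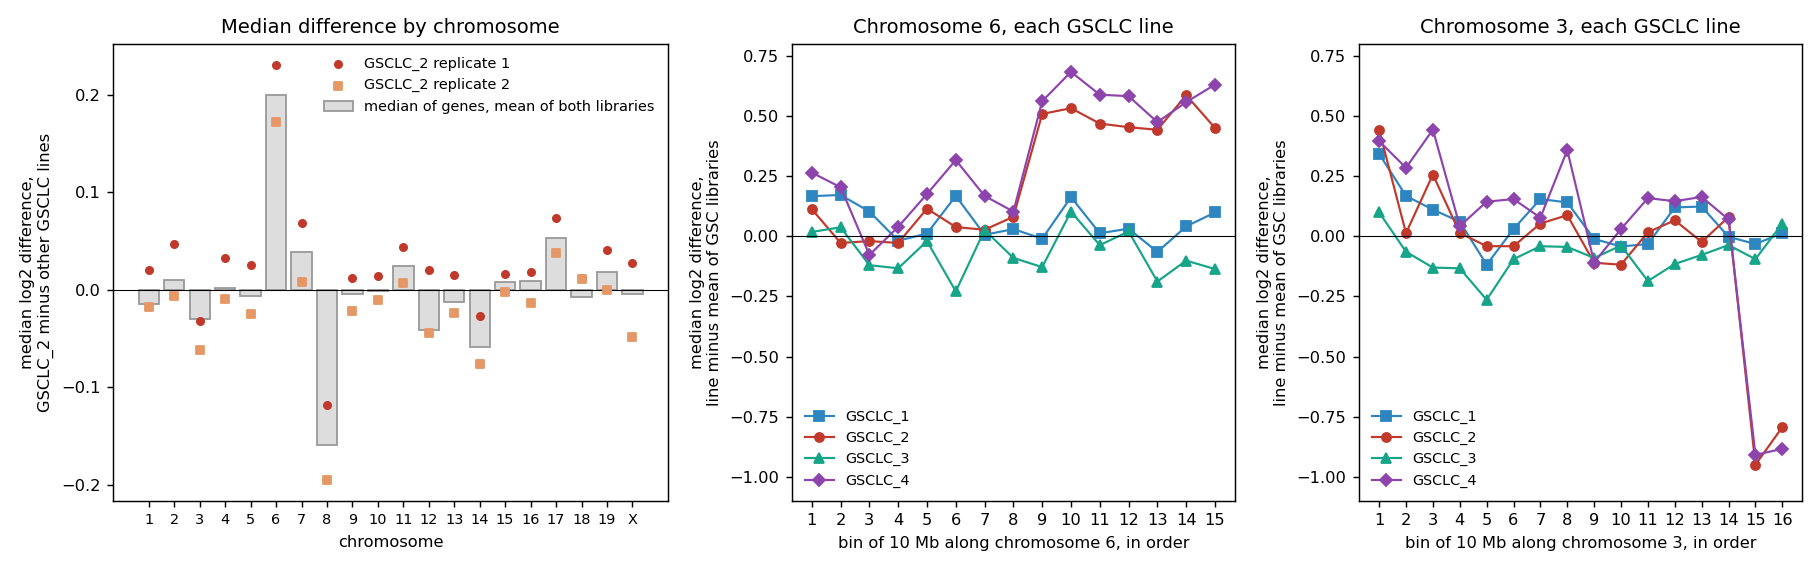
Left, the median log2 difference between GSCLC_2 and the other GSCLC lines per chromosome (bars) with each GSCLC_2 library as a point; centre and right, medians in bins of 10 Mb along chromosomes 6 and 3 for each GSCLC line minus the mean of the GSC libraries. GSCLC_2 and GSCLC_4 step up together on chromosome 6 from the ninth bin and down together in the last bins of chromosome 3, while GSCLC_1 and GSCLC_3 stay near 0.

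GSCLC_3, the line that shares condition 2, was the farthest from GSCLC_2 of the 3. Over the tested genes the Euclidean distance on the log2 scale was 43.5 to GSCLC_1, 47.0 to GSCLC_4 and 55.8 to GSCLC_3, and the mean Pearson correlation between libraries was 0.963, 0.957 and 0.947. Between the libraries of GSCLC_2 it was 0.974. Genes are the points of these correlations, and they are no independent replicates. In limma, 350 genes were higher (3.06%) and 254 lower (2.22%) in GSCLC_2 than in GSCLC_3. With each library centred on its median the split was 265 higher and 348 lower, and with quantile normalization 260 and 284, so the balance of directions depends on the scaling. By the same fit 56 genes were higher and 46 lower than in GSCLC_1, and 49 higher and 44 lower than in GSCLC_4. These 3 contrasts share the GSCLC_2 libraries, and the differences between their counts were not tested.

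Against GSCLC_3, Epas1 was higher by 3.92 ± 0.33 (adjusted p = 8.33e-06) and Ddr1 by 2.52 ± 0.17 (adjusted p = 1.53e-06). Sox2 was lower by 2.34 ± 0.18 (adjusted p = 6.03e-06), Mael by 1.23 ± 0.12 (adjusted p = 7.34e-05) and Tex19.1 by 1.49 ± 0.21 (adjusted p = 0.000931), all on the log2 scale. Of the 3 cholesterol genes above, Sc4mol was lower by 1.17 ± 0.20 and Srebf2 by 0.70 ± 0.13 (adjusted p = 0.00329 and 0.00701), while Cyp51 did not pass (-0.73, adjusted p = 0.0542). Piwil2 did not pass in this contrast (-0.50, adjusted p = 0.0554), nor did Etv4 (0.62, adjusted p = 0.114). The GSCLC_3 libraries also enter the reference of the comparison with all 3 lines. With 2 lines per condition, an effect of condition was not tested here.

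Of the 53 passing genes named by rule, Epas1, Pycard, Trf, Ddr1, Sox2 and Tex19.1 passed in each of 21 alternative settings, and 0 of the 53 changed direction in any. The count of passing genes rests on single libraries and lines: 9 passed without GSCLC_2 replicate 1, 21 without GSCLC_2 replicate 2 and 40 without GSCLC_3 in the reference, all 40 among the 183. Without GSCLC_3 in the reference 33 of the 53 no longer passed, with the direction kept. Among them were Utf1, Wt1, Hebp1, Ryr1, Gpc4, Dusp4, Id1, Sohlh1, Etv4, Ier3, Srebf2, Sc4mol, Cyp51, Mcm2, E2f1, Hk2, Piwil2, Tdrd1, Hoxa10 and Hoxa13.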

How the data were processed

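The authors deposited 1 table of RPM per gene, with 1 column for each of the 12 libraries. The submitters' processing notes name cutadapt 1.3, TopHat 1.4.1, Cufflinks 2.2.0 and the build mm10; their settings, and whether strand was used, are not stated there. The 508 values under 0.001 RPM were set to 0. Low values came out as whole multiples of 1 step (tolerance 0.1 step) for 99.74% to 99.81% of genes, which gave the implied reads per library and the level of 3 reads. Reads are amplified and carry no molecular identifiers, so this covers counting error only.

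Genes that reached 5 RPM in 2 or more of the 8 GSCLC libraries were tested on log2(RPM + 1) with limma 3.58.1 in R 4.3.3 (lmFit over the 8 libraries with 1 mean per line, eBayes with trend). Tests were two-sided, with Benjamini-Hochberg adjustment over all 11453 genes and a threshold of 0.05. A second fit took the mean of each line as 1 value, 1 line against 3. The deposited RPM are no counts, so no count model was run. The fit was tested on simulated data. Python 3.11.15 was used for summaries.

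Genes were named by rule: the 12 largest differences in each direction among passing genes of at least 20 RPM whose groups did not overlap, up to 6 passing members of each of 47 gene lists, and 14 genes named whatever their result. The lists, the comparison and the rule were chosen with earlier results of these data known. Where values of other list members or of genes on single chromosomes are given, they were picked after their values were seen. Gene positions and promoters are from RefSeq on GRCm38.p6, and 364 tested genes had no position. Transcript ends were compared over the last 300 bases, and 12 of 66 named genes share a stretch of 40 bases there with another gene. Genes of the Y chromosome are not analysed here. Replicates are cultures of 1 line, so p-values by library measure the spread between cultures. Alternatives were other pseudocounts, filters, scalings and fits, a replicate block, and leaving out each library or line. The replicate numbers did not pair the samples.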

Additional observations from a re-analysis of the deposited data

Results flagged for a closer look

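In 2 genes, 1 library was flagged as far from the other 5 of the compared lines by Dixon's criterion for groups of 6. Chance meets it in about 1 in 20 groups, so a few flags among many genes can arise by chance. Ndufa11 was at 396.9 RPM in GSCLC_1 replicate 2, where the other 5 libraries were at 343.2 to 361.2. Rps4x was at 688.1 RPM in GSCLC_3 replicate 1, where the other 5 were at 525.9 to 577.1. Without GSCLC_3 replicate 1 Rps4x still passed, and without GSCLC_1 replicate 2 Ndufa11 did not. These flags are not exhaustive. On the RPM scale Apba3, for example, stood at 73.6 in GSCLC_4 replicate 1, where the other 5 libraries were at 20.9 to 36.0.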

How the results depend on the processing

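The count of passing genes depended on the settings more than the direction of the named genes did. By library, 93 genes were higher and 90 lower as reported. The counts were 15 and 9 with no filter on low values, 17 and 8 with eBayes without trend, 19 and 21 without line GSCLC_3 in the reference, 215 and 148 without line GSCLC_4, and 53 and 53 without the genes of chromosomes 6 and 8, an alternative chosen after seeing the data. Leaving out 1 library gave 4 to 166 higher and 5 to 129 lower. By line, where 0 passed, 5 were higher and 3 lower without GSCLC_1, 0 and 1 without GSCLC_3, 1 and 2 without GSCLC_4, and 0 when 1 library was left out. Against GSCLC_3, with 350 higher and 254 lower, no filter gave 180 and 128, no trend 160 and 92, and leaving out 1 library 54 to 456 and 53 to 351. A line left with 1 library was assumed to vary like the others. The cause of these changes was not tested.

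With the replicate number as a block, 89 genes were higher and 79 lower, and 158 of the 183 were among them. Against GSCLC_3 the block gave 352 and 265. The numbers do not pair the samples: correlations between the replicate deviations of lines ran from -0.0892 to 0.106.

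For the 53 passing named genes, 822 of 1109 alternative values still passed, 287 did not, and 0 reversed. Of 270 values of the 13 others, 0 passed and 5 reversed. Stra8 ran from -1.01 to 0.30 when 1 library was left out, the high value without GSCLC_2 replicate 2, and was 0.0032 without line GSCLC_4. Gfra1 ran from -0.067, without GSCLC_3 replicate 2, to 0.16, and was -0.065 without line GSCLC_3. Dnmt3b ran from -0.00091, without GSCLC_4 replicate 1, to 0.16. The chromosome medians held under leaving out 1 library, at 0.172 to 0.231 for chromosome 6 and -0.195 to -0.118 for chromosome 8. Depth limits genes near 3 reads, such as Tdrd9 and Magea10.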
